A study of Zea mays with 2 samples.

Results

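Long loci of the maize genome were examined in endosperm 18 days after pollination. A member was an entry on chromosomes 1 to 10 whose position occurs once in the deposited table and whose end minus start is 20000 bases or more. This rule uses position alone and no measured level. It found 637 long single-entry loci among 56848 entries, or 1.42% of the 45009 single-entry loci on these chromosomes. The other 44372 single-entry loci, all shorter than 20000 bases, served for comparison. Loci of 20 kb or more that hold several entries (345 loci with 870 entries) were left out by the rule.

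The study set kernels of the defective kernel mutant dek37 against wild-type (WT) kernels, with 1 RNA-seq library of endosperm for each genotype. The allele of dek37, the inbred background, the number of plants or kernels in a library and the origin of the WT kernels are not stated in what was available here. Levels are in RPKM, which divides the reads of an entry by its length in kb and scales them to the library's reads. The read totals were inferred from the values themselves, by taking the commonest product of RPKM and end minus start as 1 read. They came to 19106174 for dek37 and 18139532 for WT, and all recovered reads and lengths below rest on them. With 1 library per genotype there is no replicate check, no p-value can accompany a difference, and everything below describes these 2 libraries. In bulk tissue, fewer cells of a type and less RNA per cell cannot be told apart. The tissue label could not be checked against marker genes, because the entries carry positions and no gene names.

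As background, a long plant gene is usually long because of its introns. In maize, introns often carry transposable elements, which lengthen the gene without lengthening the mature messenger RNA, since the spliceosome removes introns in the nucleus. Long introns must be transcribed in full and spliced across a large distance. The DEK37 protein belongs to the pentatricopeptide repeat family and acts in mitochondria, where introns are removed by a separate machinery from that of the nucleus. The endosperm at this stage fills with starch and storage protein. The zeins, the main storage proteins of maize, are known to be encoded by short genes without introns.

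The 637 long loci were expressed at low to moderate levels. Their median was 4.91 RPKM in dek37 and 3.76 RPKM in WT, and the middle 50% ran from 0.438 to 17.8 RPKM in dek37, against 0.347 to 13.6 RPKM in WT. The shorter single-entry loci had medians of 2.05 RPKM in dek37 and 1.46 RPKM in WT. The long loci were therefore the higher of these sets at the median, although their most abundant members stood far below the most abundant shorter loci, which reached 19769 RPKM in dek37 and 65773 RPKM in WT.

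Taken by their mean over both libraries, 213 long loci (33.4%) lay below 1 RPKM, 81 lay from 1 to 3 RPKM and 103 from 3 to 10 RPKM. The fullest class above that was 10 to 30 RPKM, with 178 loci (27.9%, against 15.1% of the shorter loci). A further 54 lay from 30 to 100 RPKM, and 8 had 100 RPKM or more. No long locus had a mean of 1000 RPKM or more. The same held for all but 68 of the 44372 shorter loci (0.153%), and 0 of 637 allows a share of up to 0.471% (3 counts), so a shortage of very abundant loci was not detectable with 637 members.

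Level did not run evenly with span. Among single-entry loci, the median of the mean RPKM climbed from 0.780 below 1 kb and 1.12 at 1 to 2 kb to 3.45 at 2 to 5 kb, 8.26 at 5 to 10 kb and 8.88 at 10 to 20 kb. It was 6.12 RPKM for the 550 long loci of 20 to 50 kb. Above 50 kb it was far lower, at 0.539 RPKM for 72 loci of 50 to 100 kb and 0.507 RPKM for 15 loci of 100 kb or more. Of the 87 loci of 50 kb or more, 51 (58.6%) lay below 1 RPKM, against 162 of 550 (29.5%) at 20 to 50 kb. Across the 637 long loci, Spearman's rho between span and mean RPKM was -0.24, given as a description since all loci share the same 2 libraries.

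**Figure D1:**
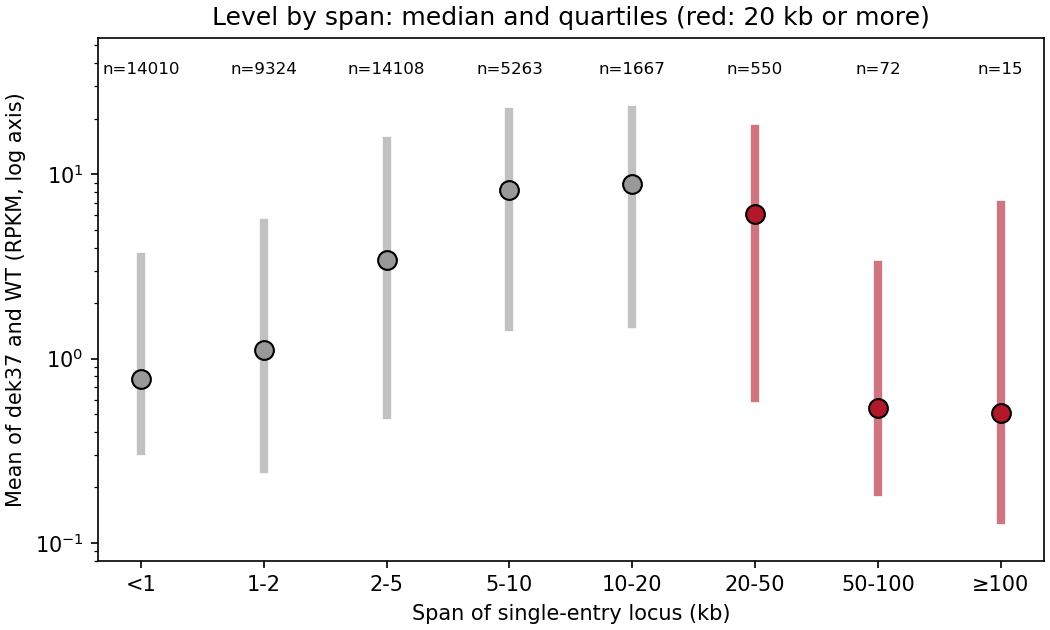
Mean of the dek37 and WT levels (RPKM, log axis) of single-entry loci by span class in kb, with the median as a point, the middle 50% of loci as a bar and the number of loci above. The median peaks at 8.88 RPKM for 10 to 20 kb, is 6.12 RPKM for 20 to 50 kb and is near 0.5 RPKM in both classes above 50 kb; red marks the long loci.

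The lengths behind the values were short beside these spans. RPKM values of an entry are whole reads only at certain lengths, and the smallest such length between 30 and 25000 bases could be found for all 637 long loci. Its median was 1347 bases, with a middle 50% range of 813 to 2052 bases, against 549 bases for the shorter loci. As a share of the span it came to 4.37% at the median (middle 50% range 2.22 to 7.52%). The longest was 14229 bases. Given the inferred read totals, these lengths are lower bounds, because any multiple that also gives whole reads would fit as well. Whether they are summed exons is not stated.

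The length recovered in this way changed little with span among the long loci. Its median was 1387 bases at 20 to 50 kb, 1212 bases at 50 to 100 kb and 1057 bases at 100 kb or more, and it was 1407 bases at 10 to 20 kb. Below that it followed the span, with 219 bases under 1 kb and 937 bases at 2 to 5 kb. All of these are medians of lower bounds, which can fall further short where reads are few. Of loci of 50 kb or more, 58.6% lay below 1 RPKM, against 29.5% at 20 to 50 kb. Whether read number bears on these medians was not tested.

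Between the genotypes, the long loci stayed close together. The difference is taken on the log2(RPKM + 1) scale as dek37 minus WT, and loci were compared where the higher library had at least 10 RPKM, which 258 of the 637 long loci (40.5%) and 12489 shorter loci (28.1%) reached. Of the 258, 218 were higher in dek37 and 40 were lower. Their median difference was 0.34, with a middle 50% from 0.10 to 0.57. Over all 17017 entries that reached the same level, the median was 0.39 and 77.3% were above 0, so the direction of the long loci was that of the table as a whole. The pseudocount of 1 understates differences of low loci.

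Large differences were few. At least 2-fold higher in dek37 were 10 of the 258 long loci (3.88%), where the background over all entries was 14.8%. At least 2-fold lower was 1 of 258 (0.388%), where the background was 3.07%. At 4-fold, 2 were higher and 0 lower. A difference of less than 0.5 in either direction was found for 176 of the 258 (68.2%), against 51.6% of the shorter loci. The middle 50% of long loci was 0.47 wide, and that of shorter loci 0.71 wide. No test was made of these gaps, since loci of the same 2 libraries are not replicates. The floor was applied to the higher library. Loci below 10 RPKM in the other library thus entered only through the one where they were high. This favours 2-fold differences in every share counted at this floor. The classes of 10 to 30 and 30 to 100 RPKM below go by the mean, so the floor removes none of their loci.

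**Figure D2:**
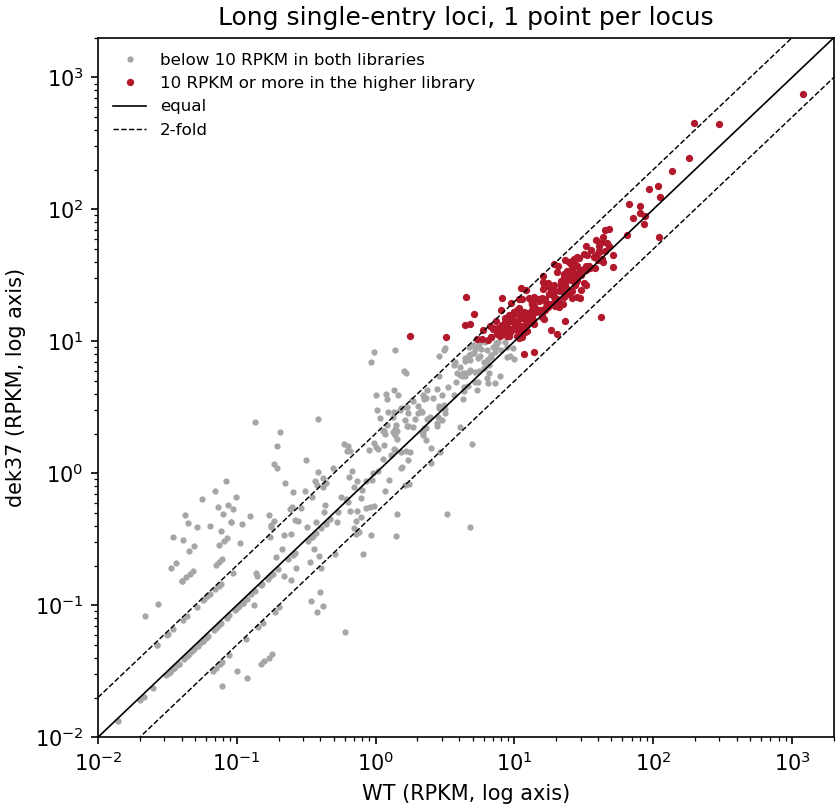
Level in dek37 (RPKM, log axis) against level in WT (RPKM, log axis) for each of the 637 long loci, with a solid line at equality and dashed lines at a 2-fold ratio. Most red points, the 258 loci with 10 RPKM or more in the higher library, lie between the dashed lines, mostly above the solid one; grey points below about 1 RPKM scatter more widely.

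The comparison was then made at equal level. Shorter loci were weighted so that 8 classes of mean RPKM, with limits at 1, 3, 10, 30, 100, 300 and 1000, were filled in the same proportions as among the 258 long loci. Of the shorter loci weighted in this way, 13.9% exceeded WT at least 2-fold in dek37 and 2.58% were 2-fold or more below it, with a middle 50% that was 0.69 wide. In the class of 10 to 30 RPKM, 6 of 178 long loci (3.37%) differed at least 2-fold, 5 of them higher, against 14.6% of 6712 shorter loci. In the class of 30 to 100 RPKM, 0 of 54 long loci did, against 14.0% of 3279 shorter loci.

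The centre of the differences moved much less than their width. Each of the 258 long loci was set against the median of the shorter loci in its class of level. The median of these gaps was -0.05, with a middle 50% from -0.26 to 0.14, and 118 of the 258 (45.7%) lay above their class median. In the class of 10 to 30 RPKM the median difference was 0.31 for long loci and 0.36 for shorter loci. In that of 30 to 100 RPKM it was 0.24 for long loci and 0.35 for shorter loci.

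**Figure D3:**
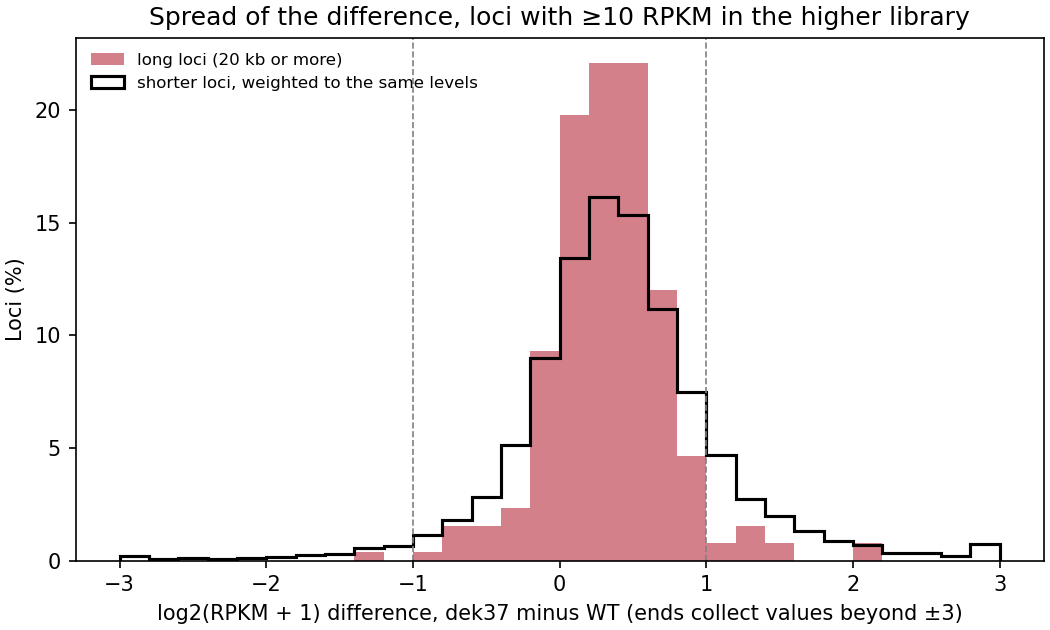
Percent of loci by their log2(RPKM + 1) difference, dek37 minus WT, in steps of 0.2, for the 258 long loci (red) and for the shorter loci weighted to the same levels (black line); dashed lines mark 2-fold. Both peak between 0 and 0.6, but 4.26% of the long loci and 16.5% of the weighted shorter loci lie at or beyond 2-fold.

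Read number and length moved with span too. Among loci that reached 10 RPKM, the median of the recovered reads of both libraries together was 1103 for long loci and 648 for shorter loci. The median recovered length was 1504 bases for long loci and 738 bases for shorter loci. When shorter loci were weighted to the recovered reads of the long ones, 15.1% differed at least 2-fold. The share was 14.3% when they were weighted to recovered length, and 13.7% when weighted to level and reads together, against 4.26% (11 of 258) of long loci. Long loci had the lower share beside each of these weightings, which were chosen after the data were seen. Among unweighted shorter loci of 2000 bases or more, 11.4% were at least 2-fold higher and 1.39% at least 2-fold lower in dek37. Level, reads and length were not all weighted together, and whether reads or length bear on the gap was not tested. The recovered numbers are the smallest that fit, so the weighting by reads and by length is approximate.

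The narrow spread was no sudden feature of 20 kb. Among loci that reached 10 RPKM, the share at least 2-fold higher in dek37 was 18.9% below 1 kb, 25.7% at 1 to 2 kb, 13.8% at 2 to 5 kb, 8.35% at 5 to 10 kb, 5.98% at 10 to 20 kb and 3.69% at 20 to 50 kb. The share at least 2-fold lower was 7.35%, 6.36%, 2.04%, 13 of 2599 loci, 0.234% and 0% in the same classes, the last being 0 of 244. The middle 50% of differences narrowed from 1.01 below 1 kb to 0.53 at 5 to 10 kb, 0.48 at 10 to 20 kb and 0.46 at 20 to 50 kb. Long loci thus stood at the end of a gradient that runs through the shorter classes from 1 to 2 kb upward. Their values lay close to those of loci of 10 to 20 kb. The span classes were not matched on level, reads or length. The floor was reached by 15.1% of loci below 1 kb and 44.4% at 20 to 50 kb. Median recovered lengths over all loci of these 2 classes were 219 and 1387 bases. Whether these bear on the gradient was not tested.

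Above 50 kb the numbers were too small to follow the gradient further. Only 14 of the 87 such loci reached 10 RPKM. Of these, 10 were higher and 4 were lower in dek37, with differences from -1.39 to 1.48 and a median of 0.10. The share higher was 71.4%, near the 77.3% of all entries that reached 10 RPKM. At least 2-fold, 1 was higher and 1 lower (7.14% each), where the background over all entries was 14.8% higher and 3.07% lower.

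**Figure D4:**
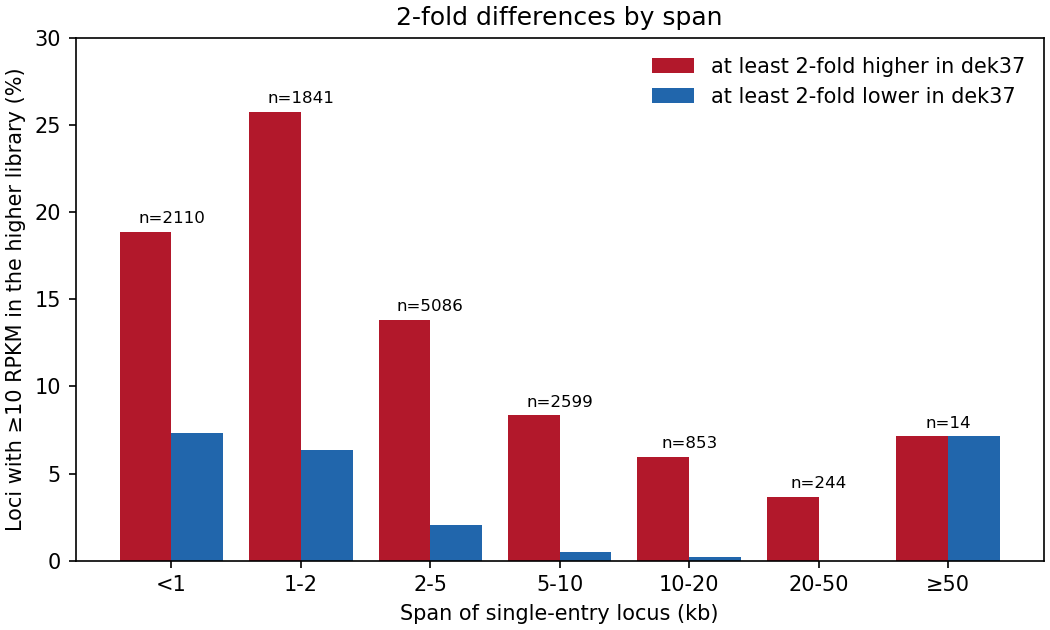
Percent of single-entry loci with 10 RPKM or more in the higher library that were at least 2-fold higher (red) or lower (blue) in dek37, by span class in kb, with the number of loci above each pair of bars. The share higher in dek37 is 18.9% below 1 kb, then goes from 25.7% at 1 to 2 kb to 3.69% at 20 to 50 kb. The class of 50 kb or more holds 14 loci, with 1 in each direction.

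The long loci with the highest levels followed the general direction with 1 exception. Positions are those of the deposited files, with starts printed 1-based, on a genome build that no source at hand names. None of the loci has the same start and end as a gene in the RefSeq table at hand, whose assembly is Zm-B73-REFERENCE-NAM-5.0, so no gene names, exons or sequences are given. Ratios below carry exact (Clopper-Pearson) 95% intervals on recovered fragments, which cover counting error only. Recovered fragments rest on the inferred read totals and counting rule. They come from the smallest read numbers that fit, so an interval may be wider than that of the true counts.

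The most abundant long locus was at chromosome 5, 159683411 to 159730650, with a span of 47.2 kb. It had 744 RPKM in dek37 against 1195 RPKM in WT, a ratio of 0.622 (interval 0.596 to 0.650). It was the 1 member of the 8 with 100 RPKM or more that was lower in dek37, and it alone held 7.65% of the summed RPKM of all long loci in dek37 and 14.6% in WT.

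The second lay at chromosome 2, 71110426 to 71138423, with 447 RPKM in dek37 against 297 RPKM in WT, a ratio of 1.51 (interval 1.40 to 1.62). The third, at chromosome 7, 173194135 to 173216721, had 455 RPKM in dek37 and 196 RPKM in WT. Its ratio of 2.33 (interval 2.04 to 2.65) made it the 1 locus of the 8 beyond 2-fold.

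The other 5 of the 8 had means of 100 to 300 RPKM and were higher in dek37, with ratios from 1.11 to 1.51. One of them, at chromosome 1, 31068644 to 31206122, spans 137.5 kb and is also the fifth longest member. Its level of 244 RPKM in dek37 against 182 RPKM in WT (ratio 1.34, interval 1.24 to 1.46) stood far above the median of 0.507 RPKM for loci of 100 kb or more. The locus at chromosome 4, 193735481 to 193760758, had 194 RPKM in dek37 and 137 RPKM in WT. The locus at chromosome 2, 86767115 to 86790673, had 150 RPKM in dek37 and 109 RPKM in WT. All 3 were higher in dek37 by 0.42 to 0.49 on the log2(RPKM + 1) scale, near the median of 0.39 of all entries that reached 10 RPKM. The locus at chromosome 1, 210759842 to 210789704, had 142 RPKM in dek37 against 93.8 RPKM in WT, a difference of 0.59. The last, at chromosome 7, 71155988 to 71177526, had 124 RPKM in dek37 against 111 RPKM in WT, a difference of 0.15. In the order named, the recovered lengths of the 8 were 477, 472, 183, 615, 1006, 1624, 87 and 1602 bases. The median was 1504 bases over long loci that reached 10 RPKM. The 183 bases belong to the locus beyond 2-fold. The locus with 87 bases had 236 recovered reads in dek37 and 148 in WT. All these lengths are lower bounds. RPKM divides by length, and whether short lengths bear on these ranks was not tested.

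**Figure D5:**
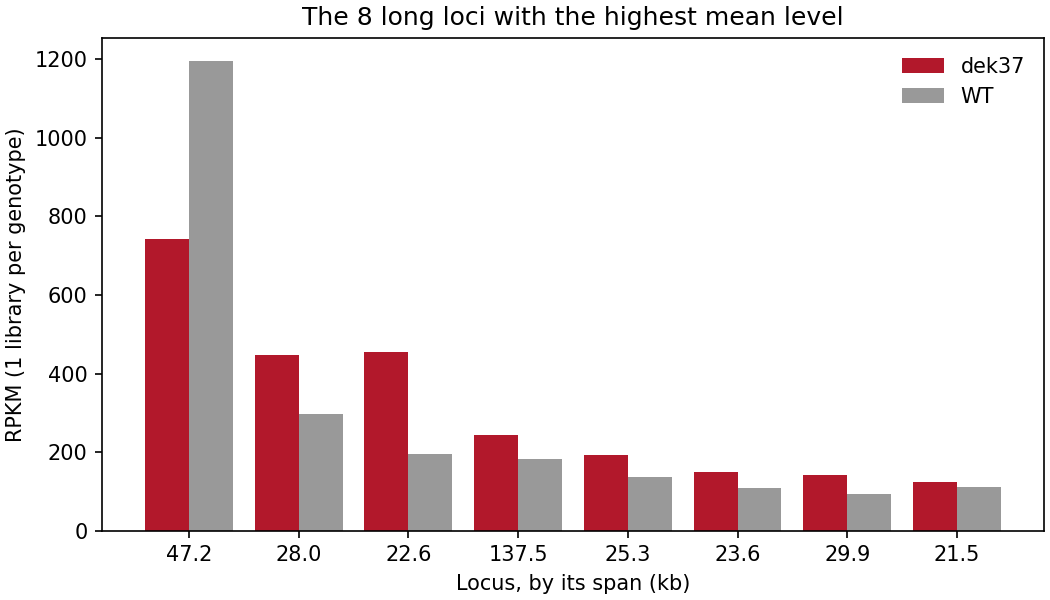
Levels in dek37 (red) and WT (grey), in RPKM, of the 8 long loci with the highest mean, each named by its span in kb; 1 library per genotype, so there are no error bars. The first locus is lower in dek37 (744 against 1195 RPKM) and the other 7 are higher.

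Together the 637 long loci had a summed level of 9719 RPKM in dek37, against 8205 RPKM in WT, which is 0.800% of all summed RPKM in dek37 and 0.598% in WT. Without the most abundant locus the sums were 8975 RPKM in dek37 and 7010 RPKM in WT. The 8 most abundant loci held 25.7% of the long loci's sum in dek37 and 28.3% in WT.

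Of the 6 longest members, 3 were at low levels in both libraries. The longest of all, at chromosome 3, 76489231 to 76660352, spans 171.1 kb. It had 0.141 RPKM in dek37 and 0.0743 RPKM in WT, recovered as 2 reads and 1 read. The second, at chromosome 1, 160287318 to 160457160 (169.8 kb), stood at the value of 1 recovered read in both libraries. The third, at chromosome 4, 112645077 to 112804446 (159.4 kb), had 0.518 RPKM in dek37 and 0.654 RPKM in WT (10 and 12 reads).

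The other 3 of the 6 longest were expressed. The locus at chromosome 10, 55603292 to 55756434 (153.1 kb), had 8.28 RPKM in dek37 (268 reads) and 0.976 RPKM in WT (30 reads). Its ratio of 8.48 (interval 4.96 to 15.6) was large, but it stayed below the 10 RPKM floor and is not among the 10. The locus at chromosome 5, 105644743 to 105781509 (136.8 kb), had 30.3 RPKM in dek37 against 27.1 RPKM in WT, a ratio of 1.12 whose interval (1.00 to 1.25) holds equality. The remaining one is the 137.5 kb locus of chromosome 1 described above.

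The 10 long loci at least 2-fold higher in dek37 lay on 8 chromosomes and had spans of 20.4 to 119.5 kb. Levels ran from 10.8 to 455 RPKM in the dek37 library (median 16.6) and from 1.77 to 196 RPKM in the WT library (median 4.93). Most of the 10, among them the loci named below, had less than 10 RPKM in WT. These reached the floor through their dek37 level alone, which favours a higher level in dek37. All but 1 had a mean below 30 RPKM, and the counting interval excluded equality for all 10, which picking loci by a 2-fold difference favours. The largest difference was at chromosome 2, 51553186 to 51574813, with 10.9 RPKM in dek37 against 1.77 RPKM in WT, a ratio of 6.17 (interval 3.15 to 13.5). Next came chromosome 6, 166595022 to 166626902, with 21.7 RPKM in dek37 against 4.52 RPKM in WT, a ratio of 4.81 (interval 3.74 to 6.26).

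In the other direction stood a single locus past 2-fold, at chromosome 7, 108281609 to 108388756, with a span of 107.1 kb. It had 15.4 RPKM in dek37 (122 reads) and 42.0 RPKM in WT (316 reads), a ratio of 0.367 (interval 0.268 to 0.496). The next lower, at chromosome 1, 89776095 to 89830534 (54.4 kb), had 61.3 RPKM in dek37 against 109 RPKM in WT, a ratio of 0.560 (interval 0.501 to 0.626). Both exceed 50 kb, as do 14 of the 258 loci compared.

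The counts depend on the baseline. With the median log2 ratio of all entries that reached 10 RPKM set to 0, a shift of 0.41, 5 of the 258 long loci stood 2-fold or more above WT in dek37 and 6 stood 2-fold or more below. The background was then 7.27% higher and 5.91% lower, against 1.94% and 2.33% of the long loci, so that both shares stayed below the background while the direction of the excess did not hold.

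At the low end, 379 long loci did not reach 10 RPKM in either library. The value of 1 recovered read, which cannot be told from 0 here, stood in both libraries for 56 long loci (8.79%), against 16.6% of the shorter loci. Recovered reads are the smallest numbers that fit, so some loci counted at 1 read may hold more. In 40 more, WT stood at 1 recovered read and dek37 above it, at 0.0501 to 1.10 RPKM in dek37 (12 recovered reads or fewer). In 14, dek37 stood at 1 recovered read and WT above it, at 0.0674 to 1.40 RPKM in WT (4 recovered reads or fewer). No long locus had 20 or more recovered reads in one library and 1 in the other.

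Long loci occurred on all 10 chromosomes. They made up from 0.989% of the single-entry loci on chromosome 8 (41 loci) to 1.65% on chromosome 10 (52 loci), and chromosome 1 held most of them (103). Their median difference by chromosome ran from 0.20 on chromosome 5 (24 loci compared) to 0.46 on chromosome 8 (19 loci compared), above 0 on every chromosome. No chromosome held more than 2 of the 10 loci with a 2-fold higher level in dek37.

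Along the chromosomes, long loci lay somewhat more often in the middle than shorter ones. Each chromosome was divided into 5 equal parts up to its last entry. The second part held 17.1% and the third part 16.6% of the long loci, against 13.1% and 13.2% of the shorter loci, and the fifth held 24.6% against 29.8%. Long loci of the third part were the least expressed, with a median of 2.07 RPKM, against 7.01 RPKM in the first part and 6.27 RPKM in the fifth. Shorter loci were also lowest there, with 1.06 RPKM in the third part, 2.09 RPKM in the first and 2.69 RPKM in the fifth. The median difference of long loci was between 0.28 and 0.40 in every part.

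The nearest neighbouring locus was 4.63 kb away at the median for long loci (middle 50% from 1.16 to 26.9 kb) and 2.85 kb away for shorter loci (0.834 to 14.3 kb). Another long single-entry locus was the next locus on one side for 20 of the 637. The long loci cover 22.3 Mb, or 15.1% of the summed span of single-entry loci, with 1.42% of their number.

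At the threshold itself, the shortest member spans 20.013 kb, at chromosome 7, 121377065 to 121397077, and had 0.658 RPKM in dek37 and 0.0990 RPKM in WT (14 and 2 reads). The next, at chromosome 5, 173108282 to 173128300, spans 20.019 kb and had 15.7 RPKM in dek37 and 9.16 RPKM in WT. Just outside lay chromosome 4, 14930698 to 14950684 (19.987 kb), with 35.5 RPKM in dek37 and 26.2 RPKM in WT. Next outside lay chromosome 9, 66904788 to 66924738 (19.951 kb), with 12.8 RPKM in dek37 and 6.80 RPKM in WT. All 4 were higher in dek37.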

How the data were processed

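RNA was measured by RNA-seq in 2 endosperm libraries, 1 of dek37 and 1 of WT kernels. Among tools, the submitters' processing notes name Bowtie 0.12.2. No source at hand states the build, annotation, counting program or filters. The authors deposited RPKM values, per the file headers, so a level rests on a length that the files do not state. Deposited starts were taken to count from 0. RPKM times end minus start gave whole reads for 615 of 56848 entries, against 198 with 1 base added. The read totals come from the commonest product of RPKM and span, taken to be 1 read, where span is end minus start. This comparison therefore favours end minus start by construction and cannot decide the base of the starts. Reads and lengths are the smallest that give 1 read or an even number in both libraries, to within 1e-08, found for 99.99% of entries. This counting rule and the value taken as 1 read are inferred, and no source at hand states them. At 1 kb, a single read gives 0.0523 RPKM in the dek37 library and 0.0551 RPKM in the WT library.

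Differences used a pseudocount of 1, a floor of 10 RPKM and a 2-fold threshold. Ratios of single loci use fragments of 2 reads, with a value of 1 read taken as 0. No count model and no test across loci was run. Loci named by position are the 8 highest, the 6 longest, the 2 largest increases and decreases, and the 2 on either side of the span threshold. The members and lists were chosen with earlier results of these data known. The scripts were tested on simulated data (Python 3.11.15, numpy 2.4.6, pandas 2.3.3, scipy 1.17.1). Simulated reads followed the same rule of 1 read or an even number, with known totals. The simulation therefore could not test that rule or the inferred totals. Alternatives were other pseudocounts, floors, scalings, spans, classes and weightings. The RefSeq gene table was used only to look for shared positions.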

Additional observations from a re-analysis of the deposited data

How the results depend on the processing

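No paired analysis was possible because dek37 and WT are represented by 1 library each, and for the same reason neither could be left out. The main settings gave 10 of 258 long loci at least 2-fold higher in dek37 and 1 lower. A pseudocount of 5 gave 4 higher (1.55%, against 9.13% of shorter loci), and one of 0.1 gave 12 (4.65%, against 16.4%). Floors of 1 RPKM and none each gave 28 higher and 4 lower, of 435 and 637 loci compared. The shares higher were 6.44% and 4.40%, against 14.9% and 9.38% of shorter loci. A floor of 50 RPKM gave 1 higher and 0 lower of 27 (3.70% higher, against 14.7% of shorter loci). Scaling by the median or by trimmed mean of M values (30% and 5% trimmed, over entries of at least 10 RPKM) gave 5 higher and 6 lower each, and turned the median difference from 0.34 to -0.04 (-0.039 and -0.041), which the scalings bring near 0 by construction. A minimum span of 10000 gave 61 higher and 3 lower of 1111 (5.49% and 0.270%, against 15.4% and 3.34% of shorter loci). One of 50000 gave 1 higher of 14 (7.14%, against 14.5%). The median difference was 0.20 with no floor and 0.10 at 50000. The median at equal level, -0.05, became 0.0045 with no floor, where all 637 long loci enter, and -0.26 at 50000 with 14 loci. The median level, 4.63 RPKM, was 7.90 at 10000 and 0.507 at 50000. At equal level 16.5% of shorter loci differed at least 2-fold, and 15.1%, 14.3% and 13.7% when weighted by recovered reads, by recovered length and by level with reads. Under the pseudocounts, floors and scalings tried, the shares of long loci at least 2-fold higher or lower stayed below those of shorter loci; at a minimum span of 50000 the share lower did not (7.14% against 3.07%, 1 of 14 loci). The cause of these changes was not tested. Depth limits the low end, where 110 long loci stood at 1 recovered read in at least 1 library.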

Other observations

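Loci of 20 kb or more that hold several entries were outside the comparisons above. Their 870 entries lie on 345 loci. The median of the mean RPKM was 3.34 over all 870 entries, and 13.2 over the entries picked as the highest of each locus. The floor of 10 RPKM was reached by 294 entries on 221 loci. Of these entries, 28 (9.52%) exceeded WT at least 2-fold in dek37, and 5 (1.70%) were 2-fold or more below it. Over all 17017 entries that reached the floor, the shares were 14.8% and 3.07%. The median difference of the 294 entries was 0.36, and their middle 50% was 0.65 wide. Entries of 1 locus share its position and may share reads, so these shares are not set against those of single-entry loci by any test.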
